A study of Mus musculus with 6 samples.

Results

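Motile cilia carry cerebrospinal fluid along the ventricles, and the cells that bear them in the brain are the ependymal cells of the ventricle wall and, in part, the choroid plexus epithelium. The core of a motile cilium, the axoneme, is a ring of doublet microtubules around a central pair. Outer and inner dynein arms make the doublets slide, while radial spokes and the nexin link turn sliding into a beat, and the transcription factor FOXJ1 switches on most of the genes. A list of 36 such genes was followed on 6 arrays of hippocampus, each from a different mouse, 3 labelled Ahr-KO and 3 labelled wild-type. The members were the probe sets paired with exactly 1 of these symbols, and the list was set beside Ttr, the transthyretin gene that choroid plexus epithelium expresses strongly. Of the 36 genes, 34 were measured, out of 22180 genes in all. Dnah12 was matched to no probe set, and Ccdc39 only to a probe set that several genes share, so neither has a value here.

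The Ahr-KO mice carry a knockout of Ahr, which encodes the aryl hydrocarbon receptor, a transcription factor that responds to small molecules. Both genotypes are described as hippocampus taken out of half-brains. The labels name no strain, allele, age, sex or treatment, and do not say whether the wild-type mice were littermates. The series title names memory, neurogenesis and synapses as its subject, and the cilia genes were read here as a description of the same arrays. Values are log2 signals, so a difference of 1 is a doubling. Levels of different probe sets are set against each other only in a filter on low values and in choosing a gene's probe set.

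Ahr read 6.62, 6.91 and 6.74 on Ahr-KO arrays 1, 2 and 3 and 7.68, 7.50 and 7.44 on wild-type arrays 1, 2 and 3. Each Ahr-KO value was thus below each wild-type value. As a filter on low values, the median of the gene means, 6.50, was used. This filter sorts genes by array signal, which is not read here as a ranking of their expression. Of the 34 cilia genes, 6 passed it and 28 did not, and all 10 neuronal markers of hippocampus passed. No detection calls were used, so how many of the dim members were expressed above background was not tested. In bulk tissue, fewer ciliated cells and less RNA per cell cannot be told apart.

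Ttr split the arrays without regard to genotype. It read 13.15, 9.06 and 8.64 on Ahr-KO arrays 1, 2 and 3 and 8.90, 12.64 and 9.03 on wild-type arrays 1, 2 and 3, a span of 22.7-fold. Ahr-KO array 1 and wild-type array 2 were therefore high and the other 4 low. Because these values form separate clusters, no correlation with Ttr is given, and the members are described array by array.

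The radial spoke head genes include the member with the widest span. Rsph4a, a spoke head protein, read 7.86, 6.89 and 7.30 on the Ahr-KO arrays and 6.95, 7.38 and 6.84 on the wild-type arrays. It was highest on Ahr-KO array 1, next on wild-type array 2 and Ahr-KO array 3, and its values spanned 2.03-fold with overlapping genotypes. Rsph1, a second spoke head protein, read 6.06, 5.51 and 6.10 on the Ahr-KO arrays and 5.86, 6.31 and 5.97 on the wild-type arrays, with Ahr-KO array 2 lowest and wild-type array 2 highest. Rsph9, the third, moved little: 7.62, 7.65 and 7.52 against 7.52, 7.64 and 7.36.

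In the central pair, Spag16 read 5.27, 4.64 and 5.004 on the Ahr-KO arrays and 4.74, 5.47 and 4.59 on the wild-type arrays. The order was again wild-type array 2, Ahr-KO array 1 and Ahr-KO array 3 above the others. Hydin, a large central pair protein whose loss causes hydrocephalus in mice, followed the same order of arrays over a narrower span, at 5.83, 5.53 and 5.79 against 5.55, 5.81 and 5.66, except that Ahr-KO array 1 was highest. Spef2 spanned 0.61 and Spag17 0.21.

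Among outer arm genes, Dnah9, a motor heavy chain, read 7.42, 6.92 and 7.19 on the Ahr-KO arrays and 7.10, 7.39 and 6.98 on the wild-type arrays. All 4 members of this group, Dnah5, Dnah9, Dnah11 and the docking gene Armc4, were highest on Ahr-KO array 1. Of the inner arm genes, the heavy chain Dnah6 read 5.70, 4.83 and 5.42 against 5.15, 5.42 and 5.12, with Ahr-KO array 2 lowest and Ahr-KO array 1 highest. Dnali1, a light intermediate chain, read 6.68, 6.45 and 6.75 against 6.54, 6.81 and 6.53, while Dnah1, Dnah2 and Dnah10 spanned only 0.17 to 0.21.

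Drc1 and Iqcg belong to the nexin link. Drc1 read 7.22, 6.90 and 7.15 on the Ahr-KO arrays and 7.08, 7.13 and 7.18 on the wild-type arrays, lowest on Ahr-KO array 2. Iqcg read 6.36, 6.07 and 6.11 against 6.29, 6.26 and 5.72, with wild-type array 3 apart at the bottom. Ccdc113 read 4.86, 4.84 and 4.98 against 4.92, 5.02 and 5.03, and Ccdc40, which with Ccdc39 sets the spacing of the axonemal repeat, spanned 0.42.

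The tektins, filament proteins inside the doublets, did not follow this order of arrays. Tekt1 read 5.97, 5.77 and 5.72 on the Ahr-KO arrays and 5.73, 6.004 and 6.02 on the wild-type arrays, highest on wild-type array 3. For Tekt2 the probe sets disagreed. The brighter, used here, read 5.37, 5.50 and 5.48 against 5.51, 5.24 and 5.79, a difference between genotypes of -0.06. The other read 5.52, 5.46 and 5.70 against 5.23, 5.32 and 5.28, higher on every Ahr-KO array by a mean of 0.28 (SE 0.09, n = 3 per genotype, limma adjusted p = 0.782). Tekt4 and Enkur, another inner microtubule protein, spanned 0.18 and 0.29.

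The regulators differed from most members on Ahr-KO array 2, where all 3 were above their own mean. Foxj1 read 6.45, 6.44 and 6.51 on the Ahr-KO arrays and 6.36, 6.45 and 6.33 on the wild-type arrays, a range of only 0.18 over all 6. Mcidas, a coregulator that starts multiciliation, read 5.85, 5.98 and 5.89 against 5.95, 5.66 and 5.64. Zmynd10, needed to assemble dynein arms, spanned 0.32.

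Of the remaining cilia genes, Ak7, an adenylate kinase of cilia, read 6.68, 5.74 and 6.55 on the Ahr-KO arrays and 5.86, 6.61 and 6.08 on the wild-type arrays. Ahr-KO array 1, wild-type array 2 and Ahr-KO array 3 stood above the other 3 for this gene. Ccdc153, found in ependymal cells, read 7.60, 6.97 and 7.11 against 7.13, 7.23 and 7.33, highest on Ahr-KO array 1. Meig1, known for its role in sperm formation, read 5.71, 5.56 and 5.74 against 5.33, 5.79 and 5.45, and Fam183b, Tmem212 and Stk33 spanned 0.63, 0.60 and 0.29.

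**Figure D1:**
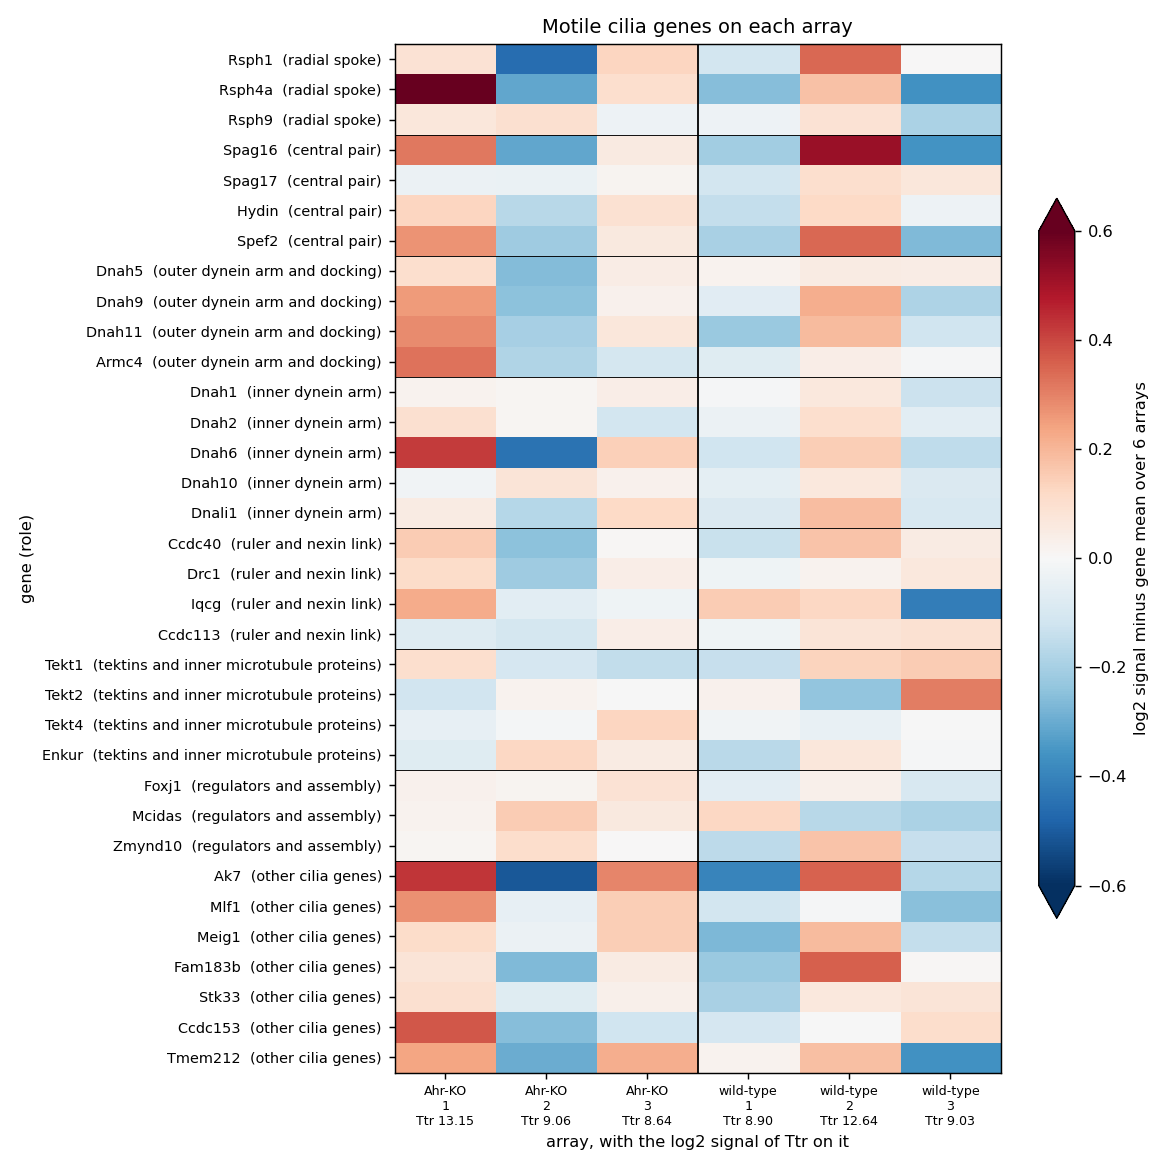
Log2 signal minus the gene's mean over the 6 arrays (colour, red higher and blue lower, scale limited to 0.6 on either side) for 34 motile cilia genes in rows, grouped by role, on the 6 arrays in columns, with Ttr under each. Ahr-KO array 1, Ahr-KO array 3 and wild-type array 2 are mostly red, and Ahr-KO array 2 is mostly blue. The tektin rows do not follow this, and the regulator rows are red on Ahr-KO array 2 as well.

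Counted over the list, the members were high on 3 arrays, of which only 2 had high Ttr. Wild-type array 2 was among a member's 3 highest arrays for 30 of 34 (51.3% of all genes), Ahr-KO array 1 for 27 (46.9%) and Ahr-KO array 3 for 23 (50.4%). Wild-type array 3 was so for 11 members (48.9%), Ahr-KO array 2 for 8 (52.6%) and wild-type array 1 for 3 (49.3%). Ahr-KO array 3 had the lowest Ttr of all. Against Ahr-KO array 2 its Ttr was lower by 0.42, yet 26 of 34 members were higher there (48.5% of all genes), by a median of 0.16 over the members. Ahr-KO array 3 was also above wild-type array 1 for 27 members (50.6% of all genes), by a median of 0.15. It was above wild-type array 3 for 23 (50.2%), by a median of 0.14. Between the high-Ttr arrays the members were even, with 16 of 34 higher on Ahr-KO array 1 than on wild-type array 2 (47.2% of all genes). By extremes, Ahr-KO array 1 was the highest array for 14 members (16.2% of all genes) and the lowest for 1 (19.9%), and wild-type array 2 the highest for 11 (16.5%) and the lowest for 1 (16.1%). Ahr-KO array 2 was the highest for 4 (19.2%) and the lowest for 13 (15.8%), and wild-type array 3 the highest for 3 (16%) and the lowest for 11 (16%). Ahr-KO array 3 was at neither end for most members, being the highest for 2 (14.8%) and the lowest for 2 (13.8%), and wild-type array 1 was the highest for 0 (17.3%) and the lowest for 6 (18.3%). These counts were chosen after the values had been seen, and members expressed by the same cells are not independent.

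The spread was wider than usual for some members. For 10 of 34 the range over the 6 arrays fell in the widest 10% of all genes, at or above 0.59, and for 15 it reached 0.5 (17.4% of all genes). The median range was 0.39 for the members and 0.32 for all genes. Ranges differed with signal: among all genes that passed the filter on low values the median was 0.27. Most members, 28 of 34, did not pass it, so all genes are not of like signal. The 6 members that passed had a median range of 0.43 and the 28 that did not 0.39. A median range for all genes that did not pass is not given here, so those 28 lack a like-signal value. The threshold of 0.5 was chosen after the values had been seen.

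**Figure D2:**
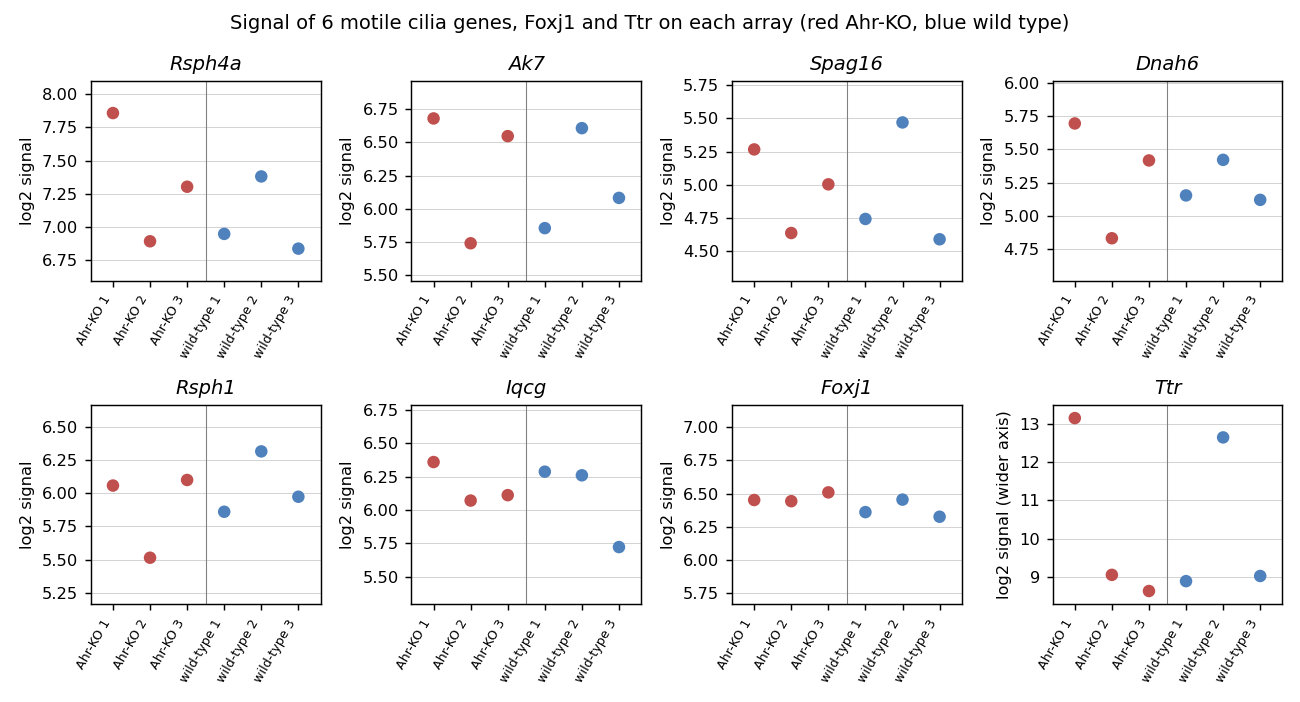
Log2 signal (vertical axes) of the 6 members with the widest range, of Foxj1 and of Ttr on each array (horizontal axes; red Ahr-KO, blue wild type, 1 point per mouse). The cilia and Foxj1 panels span the same number of log2 units and the Ttr panel more; Rsph4a, Ak7, Spag16 and Dnah6 are high on Ahr-KO array 3, where Ttr is at its lowest, 8.64.

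To summarise a list, each gene's 6-array average was subtracted from its log2 signal and the remainders were averaged per array, giving a score. The members scored 0.15, -0.14 and 0.05 on the Ahr-KO arrays and -0.10, 0.12 and -0.08 on the wild-type arrays. The other motile axoneme genes, 50 of 57 measured, had the same order at the top, with 0.12, -0.09 and 0.03 against -0.10, 0.08 and -0.03. The 7 measured dynein arm assembly factors did not, at 0.04, 0.05 and 0.05 against -0.09, -0.04 and -0.02. Wild-type array 2 was among the 3 highest arrays for only 1 of these 7. The multiciliation programme, 16 genes, scored 0.08, -0.03 and 0.05 against -0.07, -0.01 and -0.02, so wild-type array 2 was not raised there. The 9 measured ependymal genes outside the axoneme scored 0.04, -0.11 and 0.10 against -0.05, 0.14 and -0.12, so Ahr-KO array 3 was above Ahr-KO array 1 there. The choroid plexus list without Ttr, 16 genes, scored 0.85, -0.31 and -0.29 against -0.34, 0.36 and -0.26, and Ahr-KO array 3 was as low as the other low-Ttr arrays. Oligodendrocyte markers scored -0.35 on Ahr-KO array 1, where all 7 were lowest, and between -0.01 and 0.14 on the others. The 10 hippocampal neuron markers had their highest scores on the same 3 arrays as the members, with 0.01, -0.01 and 0.09 on the Ahr-KO arrays and -0.11, 0.05 and -0.04 on the wild-type arrays. Of these 10, 8 were above their own mean on Ahr-KO array 3 and 6 each on Ahr-KO array 1 and wild-type array 2. The 7 measured spermatid genes also had their highest scores on those arrays, at 0.06, 0.00 and 0.02 against -0.07, 0.01 and -0.03. Gene by gene they did not follow this order. Of these 7, 5 were above their own mean on Ahr-KO array 2, 4 each on Ahr-KO arrays 1 and 3, and only 2 on wild-type array 2. The 8 astrocyte markers did not score highest on those arrays, at -0.09, 0.04 and 0.00 against -0.02, 0.01 and 0.06. The part of choroid plexus, oligodendrocyte, neuronal and other RNA in the cilia values was not tested.

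**Figure D3:**
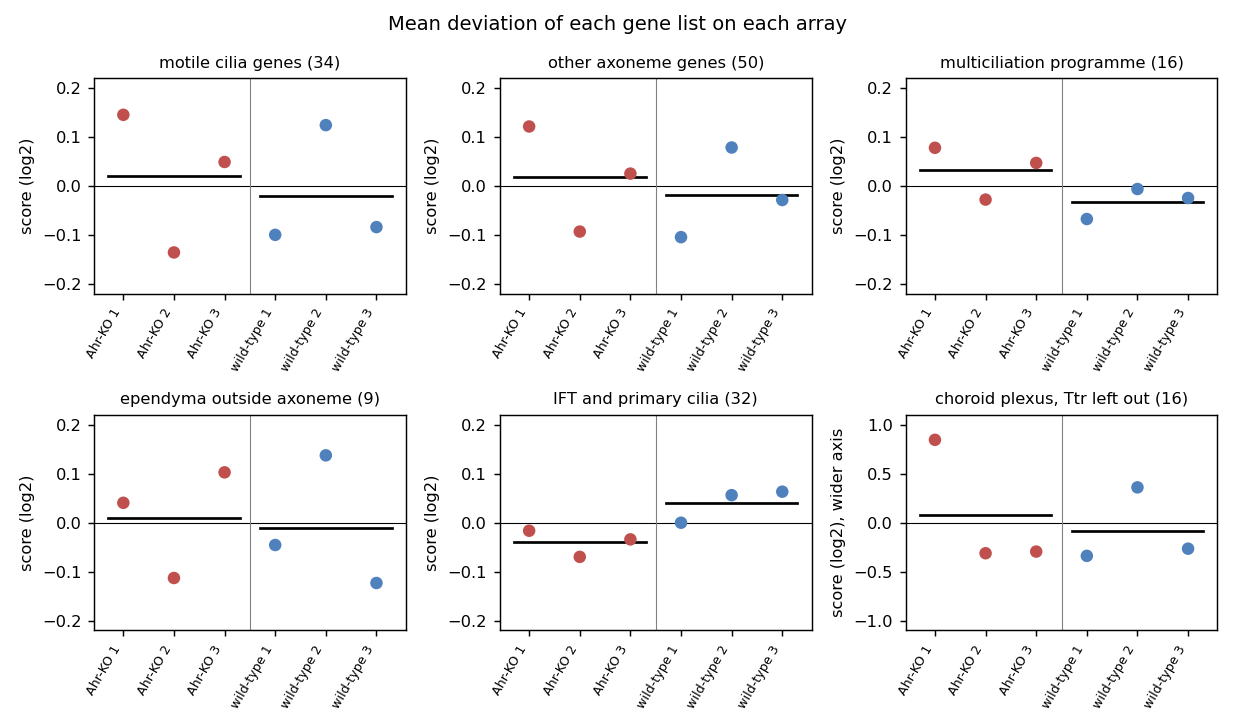
Score (mean log2 deviation from each gene's own mean, vertical axes) of 6 gene lists on each array (red Ahr-KO, blue wild type; the number of genes in brackets; black bars are genotype means). The cilia panel and the choroid plexus panel, which has a wider axis, are both high on Ahr-KO array 1 and wild-type array 2, and on Ahr-KO array 3 the cilia score is 0.05 and the choroid plexus score -0.29.

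The bases before the members' start sites were searched for the letters bound by RFX factors and by forkhead proteins. RFX factors work with FOXJ1 on cilia genes. Whether such letters go with the pattern across arrays was not tested. RefSeq windows of build GRCm38.p6, from 250 bases before to 50 after a start, were given for 29 of the 34 members. In all, 8 letter strings were searched on both strands and their counts seen before 3 were settled on for description, so these counts do not test anything. GTTGCCA, an arm of the RFX X-box, lay in the windows of 8 of 29 members (5.02% of all genes), and GTTGCTA in those of 8 (4.28%). Either form lay in 13 of 29, or 44.8%, against 8.77% of all genes. The forkhead core GTAAACA lay in 2 of 29 (4.05% of all genes). Longer X-box strings were searched as well, none of which admits GTTGCTA as an arm. A strict form of 14 letters was in 0 member windows (0.529% of all genes). A form of 10 letters, without a full second arm, was also in 0 (0.633% of all genes). With shares this low, 0 of 29 says little. A looser form of 14 letters lay in the windows of 3 members (10.3%, against 2.16% of all genes). The shorter arm strings GTTGCC and GTTNCC lay in those of 16 members (55.2%, against 14.1%) and of 25 (86.2%, against 48.8%).

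Stretches before the start of 5 members are printed 5′ to 3′ on the gene's strand with the matched letters in capitals, to set members with a wide span beside Tekt1, which has the letters and was lowest on Ahr-KO array 3. Dnah6 is from chr6:73221632-73221702 (minus strand), Iqcg from chr16:33056187-33056240 (minus), Mlf1 from chr3:67373957-67374033 (plus), Tekt1 from chr11:72361883-72361932 (minus) and Ak7 from chr12:105705816-105705892 (plus), the last with the forkhead core read on the opposite strand.
Dnah6: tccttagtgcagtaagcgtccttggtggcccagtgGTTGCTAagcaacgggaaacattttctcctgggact
Iqcg: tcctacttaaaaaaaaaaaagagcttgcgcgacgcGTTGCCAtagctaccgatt
Mlf1: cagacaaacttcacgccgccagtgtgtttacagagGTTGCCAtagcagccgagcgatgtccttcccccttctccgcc
Tekt1: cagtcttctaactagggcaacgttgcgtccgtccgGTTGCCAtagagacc
Ak7: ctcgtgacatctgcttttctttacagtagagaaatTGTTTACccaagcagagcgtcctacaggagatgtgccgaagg
The Mlf1 window also holds the forkhead core, 116 bases before the start. Among the members with a range of at least 0.5 and a window, GTTGCCA or GTTGCTA was found for Dnah6, Iqcg, Spef2 and Mlf1. Neither of these 7-letter forms was found for Ak7, Spag16, Ccdc153, Fam183b, Tmem212, Tekt2, Dnah9 or Dnah11. Of these, Spag16, Ccdc153, Fam183b and Tekt2 had the shorter GTTGCC, and Tmem212 and Dnah9 had GTTNCC only. The other members with a 7-letter form had a range below 0.5, namely Dnah5, Dnah10, Drc1, Enkur, Hydin, Mcidas, Meig1, Tekt1 and Zmynd10. A match describes letters and is not a binding site, and binding was not measured.

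No member differed between genotypes at an adjusted p under 0.05 (limma, Benjamini-Hochberg over 22180 genes; 0.0% of all genes passed). Adjusted p-values ran from 0.806 to 1.00. At an unadjusted p under 0.05, 1 member was higher in Ahr-KO (3.53% of all genes) and 0 lower (2.65%). That member, Mlf1, read 4.40, 4.07 and 4.27 on the Ahr-KO arrays and 4.01, 4.11 and 3.87 on the wild-type arrays, with overlapping genotypes. Its mean difference was 0.25 (SE 0.11, 95% interval 0.01 to 0.49, n = 3 per genotype; limma unadjusted p = 0.0450, adjusted p = 0.806, 0.591 to 0.972 over the alternatives), and it did not pass the filter on low values.

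Means were higher in Ahr-KO for 22 members and lower for 12 (50.7% of all genes were higher), with a median difference of 0.04 against 0.00 for all genes. Direction differed with signal: of all genes that passed the filter on low values 57.0% were lower, with a median of -0.02. Of the 6 members that passed, 3 were higher, and of the 28 that did not, 19 were. All genes are thus not of like signal to the members. Without Ahr-KO array 1 the higher count over all 34 members fell to 13, and their median difference turned to -0.03. On the probe sets used, the genotypes overlapped for every member (6.18% of all genes did not overlap and were higher, 5.75% lower). On the second probe set of Tekt2 they did not overlap, with Ahr-KO higher. The largest difference was that of Rsph4a, 0.30 (SE 0.23, interval -0.24 to 0.83, n = 3 per genotype, limma adjusted p = 0.871), which was 0.52 without Ahr-KO array 2 and 0.04 without Ahr-KO array 1. Foxj1 differed by 0.09 (SE 0.07, interval -0.08 to 0.25, limma adjusted p = 0.877). The intervals of the 34 members ran from -0.56 to 0.83, and the number of arrays limits this precision.

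**Figure D4:**
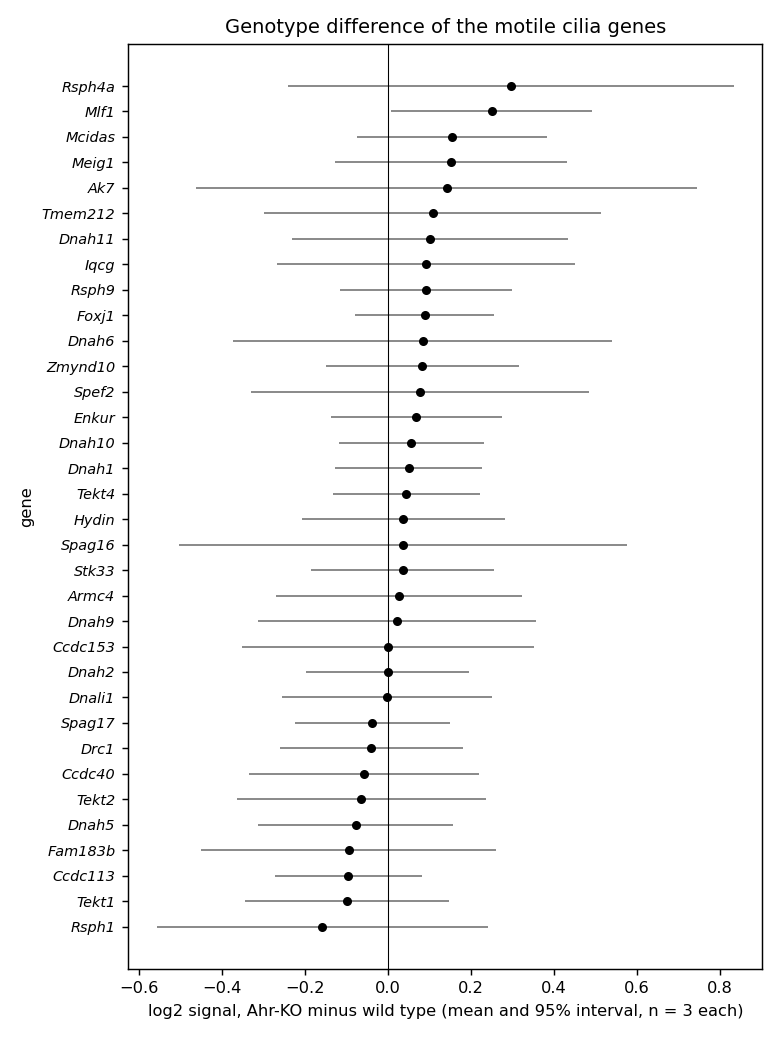
Mean log2 difference, Ahr-KO minus wild type (horizontal axis), with limma's 95% interval (lines, n = 3 per genotype) for the 34 motile cilia genes in rows. Every interval except that of Mlf1, 0.01 to 0.49, includes 0, and no adjusted p is under 0.05.

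The other genes of the pathway were read from lists written with earlier results known. None of the genes in these lists passed the adjusted p. Of the other motile axoneme genes, 32 of 50 had a higher mean in Ahr-KO, with a median of 0.04, and 1 each way had an unadjusted p under 0.05, namely Rsph6a with 0.29 (SE 0.08) and Cfap46 with -0.39 (SE 0.13). Of the dynein arm assembly factors 4 of 7 were higher, and Dnaaf5 differed by 0.31 (SE 0.09). In the multiciliation programme 11 of 16 were higher, among them Cdc20b with 0.27 (SE 0.09) and Rfx2, an RFX factor, with 0.25 (SE 0.12), while Plk4, a kinase of centriole duplication, differed by -0.22 (SE 0.12). In that list the genotypes did not overlap for 2 of 16 genes that were higher and 2 that were lower (6.18% of all genes higher, 5.75% lower). Of the other motile axoneme genes this held for 4 of 50 that were higher and 0 lower. Among the dynein arm assembly factors it held for 2 of 7 that were higher and 0 lower.

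Genes of intraflagellar transport, which carries cargo along cilia of every kind, and of the primary cilium went the other way. Of 32 measured, 31 had a lower mean in Ahr-KO (49.3% of all genes were lower), with a median difference of -0.08 against 0.00. For 7 of the 32 the genotypes did not overlap, all lower (5.75% of all genes). Ift80, a transport subunit, read 7.66, 7.50 and 7.70 on the Ahr-KO arrays and 7.75, 7.90 and 7.92 on the wild-type arrays, a difference of -0.24 (SE 0.09, n = 3 per genotype, limma adjusted p = 0.797). The scores were -0.02, -0.07 and -0.03 against 0.00, 0.06 and 0.06. All 32 passed the filter on low values, and of all genes that passed it 57.0% were lower, with a median of -0.02. After a further quantile normalization the lower count was 24 and the median difference -0.05. The count was 25 without Ahr-KO array 2, the lowest with a single array left out, and 26 without Ahr-KO array 1 and wild-type array 2.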

How the data were processed

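Affymetrix whole-transcript arrays measured hippocampal RNA, 3 from Ahr-KO and 3 from wild-type animals. The deposited values are log2 signals of 41345 probe sets; per the submitters' processing notes they were made with RMA and Affymetrix Expression Console (versions not stated there). RMA normalizes arrays together, which removes overall shifts and compresses differences. The build behind the probe sets is not given in the sources used here. Neither detection calls nor scan dates were used.

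Probe sets with 1 symbol (23521) were kept, with symbols updated by Entrez ID to RefSeq GRCm38.p6, and the brightest probe set of each gene was used, giving 22180 genes. The genotype difference was fitted by limma 3.58.1 under R 4.3.3 (eBayes without trend, two-sided, Benjamini-Hochberg adjustment, threshold 0.05), a test that was also tried on simulated data. An exact test of 3 against 3 cannot go below 0.1. The members and lists were chosen with earlier results of these data known. Values on every array were given for Foxj1, Mcidas, the brightest member of each role, and the 6 members with the lowest unadjusted p and the 6 with the widest range; from other lists, up to 3 genes with the lowest p. The numbers 1 to 3 belong to different mice; same-numbered arrays deviated together with r = -0.15, -0.22 and 0.05, so they were not paired. Alternatives covered variance model, weights, normalization, filter, probe set choice, replicate block, arrays left out and Ttr as a covariate; those for the intraflagellar transport list were chosen after seeing the data. The number of arrays limits the precision.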

Additional observations from a re-analysis of the deposited data

How the results depend on the processing

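No member passed the adjusted p under any of the 16 alternatives fitted per gene, where the lowest was 0.591, nor with every probe set tested alone. Among all genes, 2 passed with an intensity trend. Directions were less stable: of 516 member values 52 changed sign, in 23 members, all of them uncalled, and the cause was not tested. Leaving out each array in turn gave differences of Ak7 -0.037 to 0.43, Armc4 -0.13 to 0.12, Ccdc153 -0.19 to 0.13, Ccdc40 -0.15 to 0.050, Dnah1 -0.0037 to 0.093, Dnah11 -0.016 to 0.22, Dnah2 -0.051 to 0.053, Dnah5 -0.15 to 0.032, Dnah6 -0.11 to 0.32, Dnah9 -0.10 to 0.15, Dnali1 -0.063 to 0.090, Drc1 -0.10 to 0.055, Fam183b -0.23 to 0.061, Hydin -0.026 to 0.13, Iqcg -0.093 to 0.19, Rsph1 -0.26 to 0.029, Spag16 -0.14 to 0.30, Spag17 -0.10 to 0.0013, Spef2 -0.040 to 0.27, Stk33 -0.053 to 0.083, Tekt2 -0.20 to 0.073, Tekt4 -0.0099 to 0.081, Tmem212 -0.048 to 0.28. With array weights the difference was -0.0064 for Armc4, 0.037 for Dnali1. With the mean of all probe sets the difference was 0.021 for Dnah2, 0.027 for Spag17, 0.11 for Tekt2. With a further quantile normalization the difference was -0.0046 for Armc4, 0.027 for Ccdc153, 0.00033 for Dnali1, -0.0083 for Spag16. With both high-Ttr arrays left out the difference was -0.10 for Armc4, -0.013 for Dnah6, 0.065 for Dnali1, 0.0092 for Spag17. The count of members at an unadjusted p under 0.05 was 2 with every probe set tested, 0 with an intensity trend, median centring, a further quantile normalization, the filter at the median level or both high-Ttr arrays left out, and 0 to 3 with each array left out. The count of members higher in Ahr-KO was 3 of 6 with that filter and 13 to 29 with each array left out. The median difference then ran from -0.026 to 0.10 and the score difference, 0.04 on all arrays, from -0.024 to 0.12, turning below 0 without Ahr-KO array 1 or wild-type array 1. Leaving out both high-Ttr arrays gave a score difference of 0.05, and Ttr as a covariate 0.03. With the replicate block, 22 members were higher, with a median of 0.04, and 0 members had an unadjusted p under 0.05; it changed no other call. With the filter, the same 3 arrays were high for most of the 6 members left.

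With 3 arrays per genotype and many dim probe sets, small changes cannot be told from spread, and signal over background is unknown.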

Other observations

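Axoneme genes outside the list also varied between arrays. The following were chosen after their values were seen. Drc7, of the nexin link, read 6.66, 5.54 and 5.47 on the Ahr-KO arrays and 5.18, 6.22 and 5.62 on the wild-type arrays, so that it was high only where Ttr was high and low on Ahr-KO array 3. Cfap206, a radial spoke protein, read 6.44, 5.46 and 5.998 against 5.75, 6.23 and 5.45, and was raised on Ahr-KO array 3 as well. Wdr63, of the inner arms, read 5.89, 5.08 and 5.88 against 5.42, 6.001 and 5.65, with Ahr-KO array 3 level with Ahr-KO array 1. Genotypes overlapped for all 3 genes.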
